A study of Mus musculus with 23 samples.

Results

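The 41 genes described here mark the steps by which the adult hippocampus makes new neurons, and the cell divisions that feed them. They were taken by name from the 45706 genes of the count table, and all 41 had a row. By role they comprised 8 genes of neural stem cells and their niche, 5 of intermediate progenitors, 11 of neuroblasts and immature neurons, 5 of DNA replication and 12 of G2 phase and mitosis. The series title sets the work within brain insulin production, learning and memory. Female hippocampus was profiled by poly(A)-selected, strand-marking RNA sequencing in 12 Ins2+/+ libraries (WT) and 11 Ins2-/- libraries (KO). Mice carry a second insulin gene, Ins1, for which no allele is named. Age, strain and the construction of the Ins2 allele are not given in the sources used here.

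In the adult dentate gyrus, stem cells with the shape of radial glia divide rarely and give rise to intermediate progenitors, which divide quickly and become neuroblasts and then granule neurons. Notch signalling through Hes factors and BMP ligands hold stem cells quiet, and a chain of basic helix-loop-helix factors drives their daughters towards the neuronal state. Few cells of the adult hippocampus are in these states, and several of the genes that mark them are also used by mature neurons, astrocytes or oligodendrocyte precursors. In bulk tissue, fewer cells of a type and less RNA per cell cannot be told apart.

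Library totals ran from 13792256 to 22953260 rounded counts. Ins2 itself had 0 counts over the KO libraries and 26 over the WT libraries. Of the 26, 18 came from WT library 17, which was the richest in choroid plexus genes, 8 came from the other WT libraries, and 5 WT libraries had 0. KO library 8 went against its tissue label. Its 12 dentate granule cell markers summed to 159 CPM (counts per 1000000 counts of the library, on scaled library sizes), against 584 to 995 CPM in WT libraries, and each of the 12 was lowest there. Its 12 hypothalamic markers summed to 1650 CPM, against 4.53 to 20.4 CPM in WT. WT library 15 held the highest sum of 10 markers of neuroblasts of the subventricular zone and rostral stream. It was 677 CPM, of which Gad1 gave 480 CPM, against 337 to 585 CPM in the other libraries. Of those 10 genes 6 peaked in WT 15. Of the 12 granule cell markers 0 were called (smallest edgeR adjusted p 0.782). Unadjusted p-values were under 0.05 for 2 of 12, 5 of 12 without KO 8 (41.7% beside 4.1% of all tested genes) and 6 of 12 without KO 8 and WT 15 (50% beside 6.78%), of which 5 were lower in KO. Their log2 fold changes lay below 0 for 11 of 12, at a median of -0.289 beside 0.0031 over all tested genes, and for 11 of 12 at a median of -0.217 without KO 8 and WT 15. Adding their mean level to the fit as a covariate moved several members, as given below. Its part in the results was otherwise not tested.

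The members spanned more than 3 orders of magnitude in level. Per kilobase of exonic length, Tubb3, a neuronal beta-tubulin, was the highest in WT, at a median of 91 CPM per kb, followed by the microtubule-destabilising stathmin Stmn1 at 87.2 CPM per kb. Neurod2, a factor kept on by mature pyramidal and granule neurons, stood at 44.6 CPM per kb. Dcx, the doublecortin of migrating neuroblasts, stood at 1.06 CPM per kb. The cycle marker Mki67 was at 0.259 CPM per kb, and the mitotic kinase gene Bub1 closed the order at 0.0219 CPM per kb. Neuronal genes with broad expression thus occupied the top of the order and mitotic genes the bottom.

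**Figure D1:**
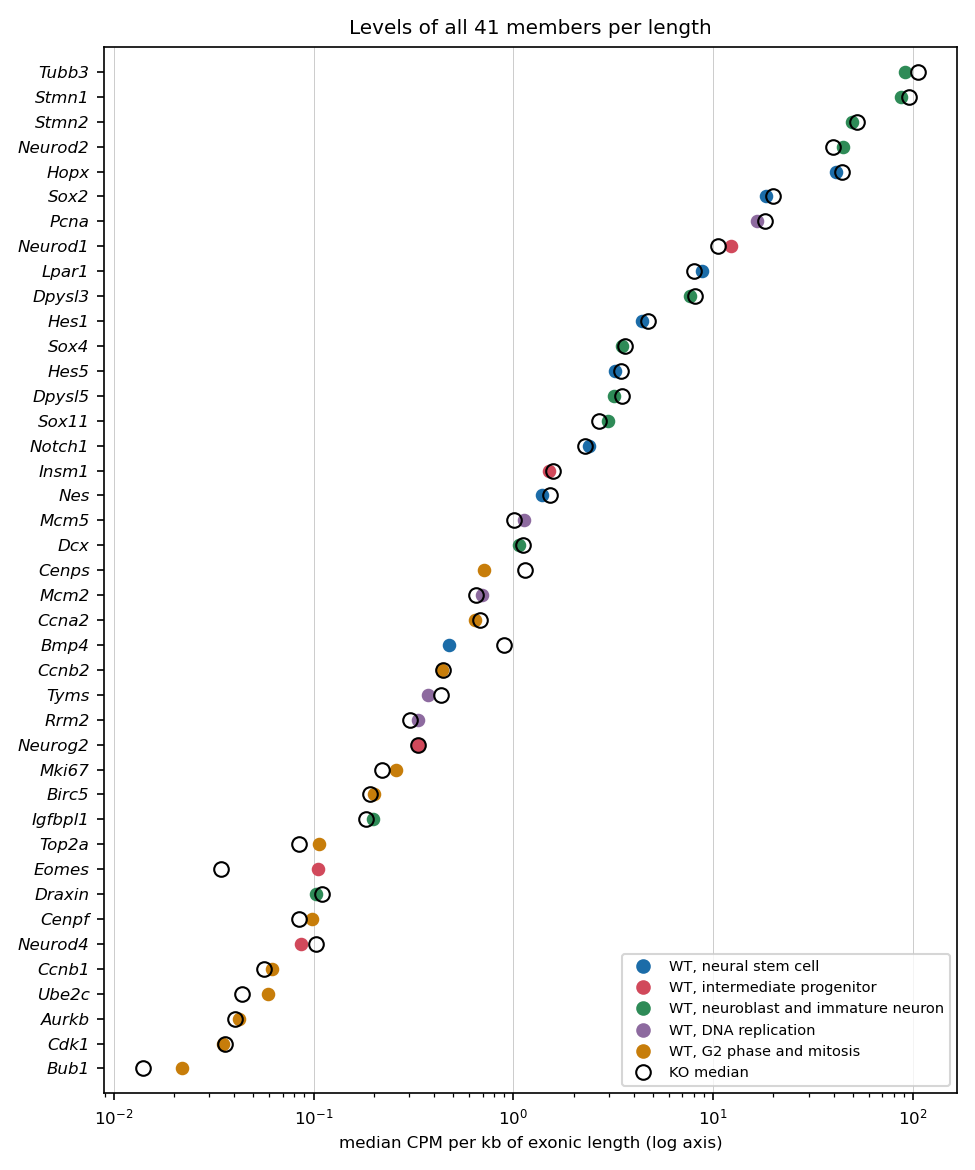
Median level of all 41 members per kilobase of exonic length (log axis), with filled points for WT coloured by role and open circles for KO. Tubb3 and Stmn1 lead at 91 and 87.2 CPM per kb in WT, and mitotic genes such as Bub1 (0.0219) and Cdk1 (0.035) lie at the bottom.

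Low levels came with few counts, but the error of a fold change did not simply follow level. Neurod2, at 44.6 CPM per kb, had an SE of 0.319, and 0.0948 without KO 8. Notch1, at 2.4 CPM per kb, had an SE of 0.0625. In every library 14 of the 41 members had fewer than 50 counts, and 21 had a mean of at least 50. The filter on low counts passed 33 members, and Eomes, Neurod4, Draxin, Cdk1, Ccnb1, Ube2c, Aurkb and Bub1 stayed below it. Between libraries of WT, library 15 left out, the coefficient of variation of Mki67 was 0.147, next to 0.152 from counting alone, and that of Bub1 was 0.959, next to 0.761. For such genes most of the scatter was of the size that counting gives. For Dcx the scatter was 0.181 against 0.0691 from counting, so library differences dominated.

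The main comparison asked whether any of these genes differed between KO and WT. With edgeR's quasi-likelihood test, 0 of the 33 tested members passed an adjusted p of 0.05 over all 15828 tested genes, where 0.0126% of all genes did. DESeq2 and limma voom also called 0. At an unadjusted p below 0.05 there were 4 members, 12.1% of those tested, against 5.74% of all tested genes. These were Stmn1, Tubb3 and the kinetochore gene Cenps with higher values in KO (3 members, where 3.41% of all genes lay in that direction) and Mki67 with lower values (1 member, against 2.33%). For 0 of 41 members did the KO and WT libraries fail to overlap, and 0.0126% of all tested genes had groups apart. The median log2 fold change over the 33 was 0.031, with 19 above 0 and 14 below.

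**Figure D2:**
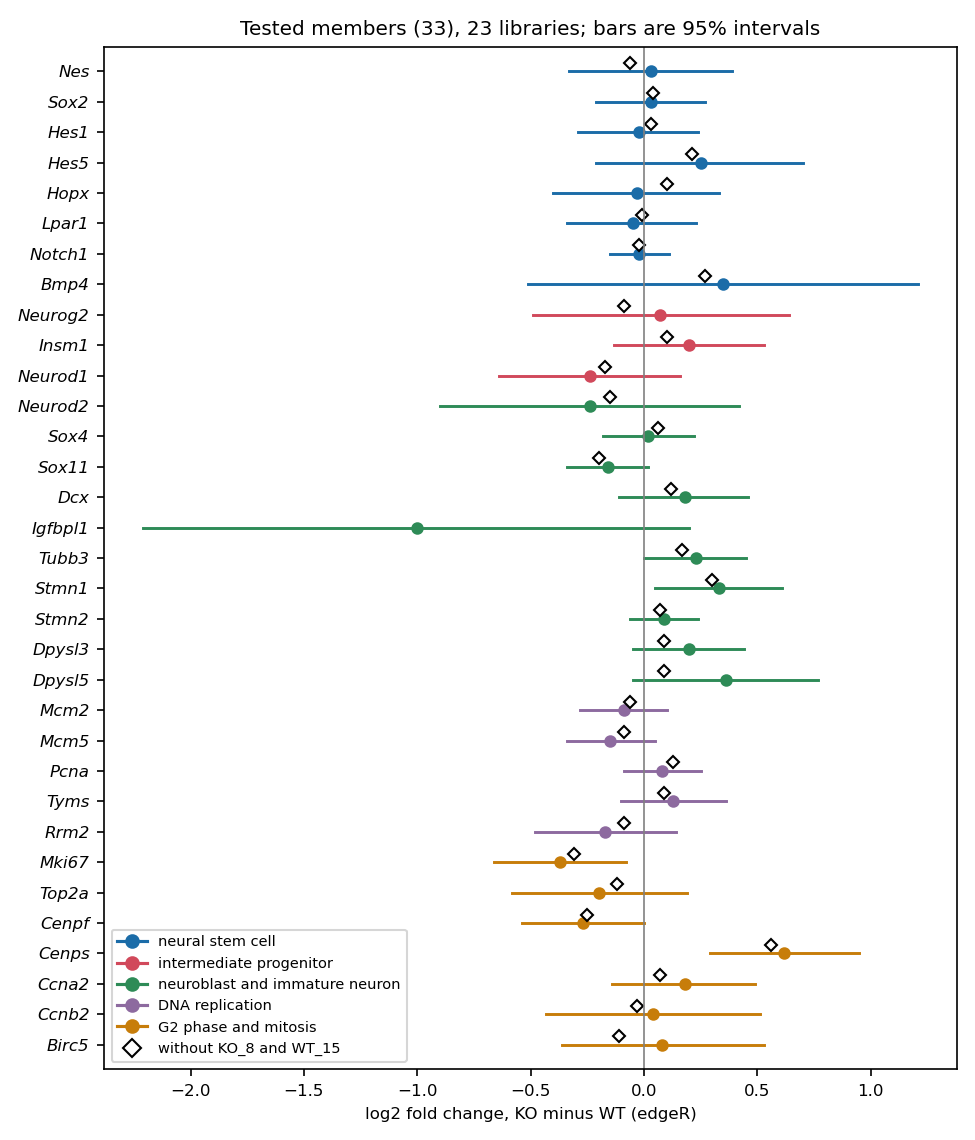
Log2 fold change of each of the 33 tested members, KO minus WT, with its 95% interval, coloured by role. Open diamonds give the value without KO library 8 and WT library 15, and Cenps (0.62) and Mki67 (-0.37) stand furthest from 0 relative to their intervals.

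Without KO library 8, 3 of 33 members had an unadjusted p below 0.05, which is 9.09% against 4.1% of all genes. Without WT library 15 there were 4 of 32, or 12.5% against 8.07%. With both left out there were 5 of 32, or 15.6% against 6.78%. Cenps and Mki67 were in all of these sets. With voom there were 7 of 33 beside 17.5% of all genes, with the dentate gyrus covariate 2 of 33 beside 2.62%, and with a mean of at least 50 counts 2 of 21 beside 5.93%. In the edgeR fit without both libraries, the smallest adjusted p of a member was 0.731.

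The 8 stem cell and niche genes gave a median log2 fold change of 0.004 (-0.003 without KO 8 and 0.033 without both doubted libraries), and 0 had an unadjusted p below 0.05. Sox2, a factor that keeps neural stem cells undifferentiated and is also on in astrocytes, ran from 33.3 to 64.9 CPM in WT (median 37.6) and from 28.6 to 62.5 CPM in KO (median 40.9). The top of each range was a single doubted library, WT 15 and KO 8. Its log2 fold change was 0.03 (SE 0.115), with a 95% interval of -0.21 to 0.27. Hopx, a marker of quiescent radial glia and of astrocytes, lay between 53.1 and 70.8 CPM in WT (median 62.3). In KO it lay between 49 and 78.5 CPM in 10 libraries, and at 11.2 CPM in KO library 8. The groups overlapped throughout, and its log2 fold change moved from -0.03 (SE 0.177) to 0.09 (SE 0.0689) without that library.

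Nes, which encodes the intermediate filament nestin, ran from 7.32 to 13.3 CPM in WT (median 8.89) and from 4.02 to 16.7 CPM in KO (median 9.77). KO library 8 was the highest and KO library 22 the lowest, and the log2 fold change was 0.03 (SE 0.174). Notch1, the receptor at the head of the pathway, had the smallest SE of any tested member, 0.0625, at 28.1 to 38.8 CPM in WT and 28.6 to 41.1 CPM in KO. Its 95% interval ran from -0.15 to 0.11 on the log2 scale. Of its targets, Hes1 had a log2 fold change of -0.02 (SE 0.127) and Hes5 of 0.25 (SE 0.221), or 0.13 without KO 8. Hes5 was spread from 1.74 to 9.63 CPM among WT libraries alone. Lpar1, a lysophosphatidic acid receptor of stem cells and oligodendrocytes, ran from 23.5 to 47.4 CPM in WT and from 19.8 to 55.3 CPM in KO.

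Bmp4, a ligand that promotes stem cell quiescence, ran from 0.648 to 7.39 CPM in WT (median 1.07) and from 0.77 to 6.66 CPM in KO (median 2.01). The highest libraries were WT 17 and KO 12, and these also had the highest mean log2 level of 12 choroid plexus genes, at 7.95 and 7.55. Its log2 fold change was 0.35 (SE 0.415), 0.83 without WT library 17 and 0.04 without KO library 12. Leaving out the 5 libraries richest in choroid plexus genes gave 0.56 at an unadjusted p of 0.0473. The part of choroid plexus tissue in the difference was not tested further.

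Among the intermediate progenitor genes 3 of 5 were tested, and 0 had an unadjusted p below 0.05. Their median log2 fold change was 0.075, -0.025 without KO 8 and -0.095 without both doubted libraries. Eomes (Tbr2), the classical marker of this state, was below the filter. On GRCm38 it occupies chr9:118478212-118486132, plus strand (GENCODE M21). WT libraries held 313 Eomes counts and KO libraries 63, and 154 of the WT counts came from WT library 15. The WT range was 0 to 6.92 CPM (median 0.435) and the KO range 0 to 1.13 CPM (median 0.143). After WT 15 the highest libraries were WT 24 at 2.45 CPM, WT 5 at 2.27 CPM and WT 23 at 1.97 CPM. The other WT libraries were at or below 0.995 CPM, inside the KO range. With no filter the edgeR log2 fold change of Eomes was -2.12 (SE 0.798, unadjusted p = 0.0143, adjusted p = 0.724). Without WT 15 and KO 8, the totals were 159 and 51 counts.

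Neurod1, which drives granule neuron differentiation and stays on in young granule cells, ran from 21.2 to 40.6 CPM in WT (median 33.2). In KO it ran from 22.6 to 44.4 CPM in 10 libraries, with KO library 8 at 4.92 CPM. Its log2 fold change was -0.24 (SE 0.195), and -0.12 without KO 8. Neurog2, a proneural factor upstream of the Neurod genes, had 0.392 to 1.25 CPM in WT and 0.296 to 1.43 CPM in KO. Insm1, a zinc-finger factor that promotes the birth of progenitors, had a log2 fold change of 0.20 (SE 0.16), or 0.09 without KO 8, and its highest value, 8.94 CPM, was again in KO library 8. Neurod4 had 77 counts in WT and 65 in KO.

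The neuroblast and immature neuron genes gave a median log2 fold change of 0.133 over 10 tested genes, 0.063 without KO library 8 and 0.091 over 9 genes without both doubted libraries. Dcx lay at 8.45 to 19.6 CPM in WT (median 13.4) and at 10.6 to 27.5 CPM in KO (median 14.1). KO library 8 held the highest value and WT library 15 the next, and the other 10 KO libraries ended at 17.7 CPM. The log2 fold change was 0.18 (SE 0.139, 95% interval -0.11 to 0.46), and 0.06 (SE 0.11) without KO 8. Sox11, a factor that switches on Dcx, had lower values in KO. It lay at 20.1 to 29.9 CPM in WT (median 24.7) and 16.6 to 28.6 CPM in KO (median 22.2), with a log2 fold change of -0.16 (SE 0.0852, p = 0.0734). Without KO 8 it was -0.20 (SE 0.0792, unadjusted p = 0.0211, edgeR adjusted p 0.967). Its relative Sox4 differed by 0.02 (SE 0.0964).

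Igfbpl1, which encodes a protein like the IGF-binding proteins and is expressed by neuroblasts, had the widest fold change interval. Its position is chr4:45809468-45826923, minus strand. WT libraries ran from 0.124 to 5.3 CPM (median 0.644) and KO libraries from 0.0951 to 2.4 CPM (median 0.594), so the medians lay close together. The WT libraries above 2.4 CPM were again WT 15, 24, 23 and 5, at 5.3, 4.25, 3.49 and 2.69 CPM. The log2 fold change was -1.0 (SE 0.583, 95% interval -2.21 to 0.20, adjusted p 0.782). Without WT 15 the gene no longer passed the filter, which it did in 17 of the 23 fits that left out 1 library.

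**Figure D3:**
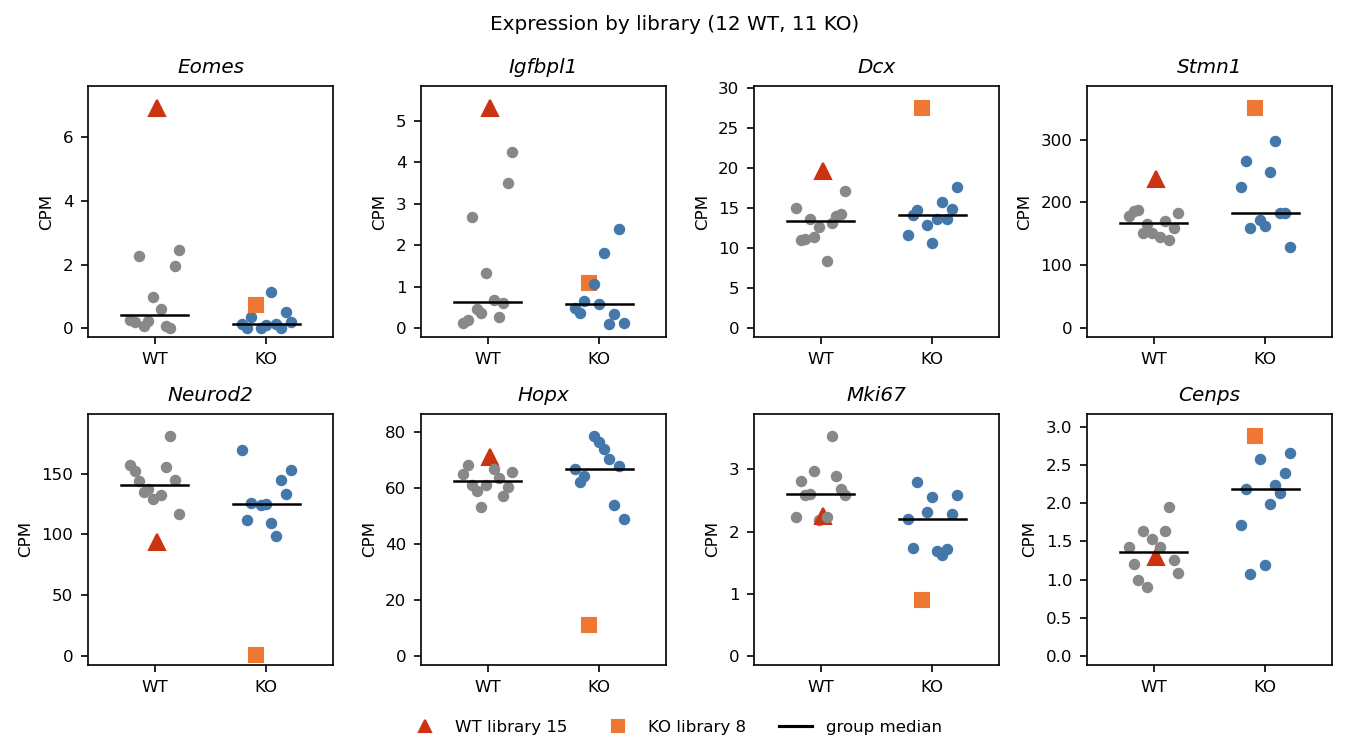
CPM of 8 members in each library, with the group median as a bar, WT library 15 as a triangle and KO library 8 as a square. WT 15 is the highest point for Eomes (6.92) and Igfbpl1 (5.3), and KO 8 is the highest for Dcx, Stmn1 and Cenps and the lowest for Neurod2, Hopx and Mki67.

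Stmn1 lay at 141 to 237 CPM in WT (median 168) and 130 to 350 CPM in KO (median 183). KO libraries 2, 4, 8, 13 and 16 held 224 to 350 CPM, and the other 6 KO libraries lay at 130 to 183 CPM. WT 15 held 237 CPM, above KO 2 and below KO 4, 8, 13 and 16. The WT libraries other than WT 15 ended at 188 CPM, so the groups overlapped. The log2 fold change was 0.33 (SE 0.135, unadjusted p = 0.0215, adjusted p 0.782), and 0.25 (p = 0.0517) without KO 8. Tubb3 lay at 123 to 212 CPM in WT (median 170) and 137 to 329 CPM in KO (median 198), with a log2 fold change of 0.23 (SE 0.11, p = 0.0491). Without KO 8 this was 0.14 (SE 0.0836, p = 0.118). Without WT 15 Stmn1 gave 0.39 (p = 0.00781) and Tubb3 0.26 (p = 0.0242). Without both libraries Stmn1 gave 0.30 (p = 0.017) and Tubb3 0.17 (p = 0.0469). With the dentate gyrus score as covariate, Stmn1 gave 0.13 (p = 0.222) and Tubb3 0.05 (p = 0.457).

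The collapsin response mediators Dpysl3 and Dpysl5, which act in growth cones, followed the same library. Dpysl5 was at 16.8 to 30.7 CPM in WT and 18.4 to 33.1 CPM in 10 KO libraries, and at 87.7 CPM in KO 8. Its log2 fold change was 0.36 (SE 0.198), and 0.08 (SE 0.0967) without that library. Dpysl3 went from 0.20 (SE 0.119) to 0.08 (SE 0.0799). Stmn2, a stathmin of growing axons, differed by 0.09 (SE 0.0709). Neurod2 ran from 93.4 to 181 CPM in WT and from 99 to 169 CPM in 10 KO libraries, with 1.26 CPM in KO 8. Its log2 fold change was -0.24 (SE 0.319), and -0.10 without KO 8. Draxin, a guidance cue, had 108 counts in WT and 121 in KO.

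Replication genes load and copy DNA in S phase. All 5 were tested, 0 had an unadjusted p below 0.05, and their median log2 fold change was -0.088. Mcm2, a subunit of the replicative helicase, lay at 3.91 to 6.15 CPM in WT (median 4.83) and 3.66 to 5.69 CPM in KO (median 4.5). The ranges nearly coincided, and its log2 fold change was -0.09 (SE 0.0907, 95% interval -0.28 to 0.10). Its partner Mcm5 differed by -0.15 (SE 0.0926) and the sliding clamp Pcna by 0.08 (SE 0.0823), and by -0.09 and 0.13 without KO 8. Tyms, which makes thymidylate, and Rrm2, which makes deoxynucleotides, differed by 0.13 (SE 0.111) and -0.17 (SE 0.15).

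Of the 12 genes of G2 phase and mitosis 7 were tested, with a median log2 fold change of 0.039 and 4 of 7 above 0. Without KO 8 the median was -0.094 with 2 of 7 above 0, and without both doubted libraries -0.108. With KO 8 kept, the median was -0.081 over 7 genes without the 5 libraries richest in choroid plexus genes. With no filter it was -0.108, over a different set, all 12 genes. With the dentate gyrus covariate it was -0.123. KO 8 scored 2.91 on that covariate and the other libraries 4.94 to 5.85, so this fit cannot show the median with KO 8 at full weight. Many of these genes share a promoter plan. A cell cycle homology region, whose core letters are TTTGAA, is bound by the DREAM and MuvB complexes, and CCAAT boxes upstream of it are bound by NF-Y. RefSeq promoter windows on GRCm38.p6, from 250 bases before to 50 bases after the start, were matched by symbol to 33 of the 41 members. TTTGAA was found on either strand in 6 of 10 mitotic windows, 60%, against 17.9% of all 32851 windows. At least 2 matches to CCAAT were found in 8 of 10, 80%, against 11.7% of all windows. Among the 5 replication windows 1 held TTTGAA. A match of letters is a description and was not tested as a site.

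The windows of 4 mitotic genes are printed because Mki67 and Cenps had the smallest p-values of the set, in opposite directions, and Cdk1 and Top2a show the shared plan. Capitals mark TTTGAA and CCAAT on either strand (read as TTCAAA and ATTGG where they lie on the other one). All lie on the minus strand, Mki67 at chr7:135716330-135716629, Cdk1 at chr10:69352863-69353162, Top2a at chr11:99024140-99024439 and Cenps at chr4:149137551-149137850. The Cenps window holds neither motif.
Mki67: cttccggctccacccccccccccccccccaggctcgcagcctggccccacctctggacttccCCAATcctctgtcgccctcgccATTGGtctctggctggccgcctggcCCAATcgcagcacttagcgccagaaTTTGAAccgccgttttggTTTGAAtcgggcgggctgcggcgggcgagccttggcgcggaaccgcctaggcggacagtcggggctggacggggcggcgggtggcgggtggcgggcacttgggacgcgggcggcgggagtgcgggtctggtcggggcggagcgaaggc
Cdk1: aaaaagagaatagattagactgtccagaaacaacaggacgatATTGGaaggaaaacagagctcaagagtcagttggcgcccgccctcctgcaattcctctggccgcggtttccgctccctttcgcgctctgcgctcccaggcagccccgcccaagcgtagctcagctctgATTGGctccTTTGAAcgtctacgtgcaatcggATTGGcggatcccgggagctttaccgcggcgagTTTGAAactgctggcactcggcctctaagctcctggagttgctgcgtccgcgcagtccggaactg
Top2a: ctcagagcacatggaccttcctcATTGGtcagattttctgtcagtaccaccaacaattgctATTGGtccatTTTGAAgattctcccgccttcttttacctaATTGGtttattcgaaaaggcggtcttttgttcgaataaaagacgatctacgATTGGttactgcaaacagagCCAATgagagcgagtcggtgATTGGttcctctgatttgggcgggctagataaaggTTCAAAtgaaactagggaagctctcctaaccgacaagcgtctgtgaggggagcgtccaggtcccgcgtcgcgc
Cenps: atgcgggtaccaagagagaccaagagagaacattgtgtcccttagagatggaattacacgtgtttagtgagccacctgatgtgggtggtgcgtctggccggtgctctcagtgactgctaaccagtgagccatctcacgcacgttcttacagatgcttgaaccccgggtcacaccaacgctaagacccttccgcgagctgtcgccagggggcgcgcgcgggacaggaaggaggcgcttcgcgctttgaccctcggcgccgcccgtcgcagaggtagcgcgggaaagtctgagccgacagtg

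Mki67, which encodes the Ki-67 protein of cycling cells, sits at chr7:135689784-135716361 (minus strand). It is the only member on the chromosome of Ins2, and the gap between them is 6.96 Mb. It had 528 counts in WT and 390 in KO. WT libraries ran from 2.19 to 3.54 CPM (median 2.6) and KO libraries from 0.9 to 2.79 CPM (median 2.2). The lowest value was that of KO library 8, the next KO library stood at 1.62 CPM, and 6 of the 11 KO libraries lay inside the WT range. The log2 fold change was -0.37 (SE 0.142, 95% interval -0.66 to -0.08, unadjusted p = 0.0149, adjusted p 0.782). It was -0.29 (SE 0.116, p = 0.0201) without KO 8, and from -0.43 to -0.29 over the fits that each left out 1 library. With the dentate gyrus score as covariate it was -0.19 (p = 0.0637), and without the 5 libraries richest in choroid plexus genes -0.55 (p = 0.00249). Adjusted p-values of Mki67 over its 7 alternatives ran from 0.132 to 0.999.

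Cenps, a histone-fold protein of the kinetochore that also serves DNA repair, had higher values in KO. Located at chr4:149127121-149137629 (minus strand), it had 272 counts in WT and 405 in KO. WT libraries lay at 0.909 to 1.95 CPM (median 1.37) and KO libraries at 1.07 to 2.88 CPM (median 2.18). KO libraries 6 and 12, at 1.07 and 1.19 CPM, lay low among WT values and KO 2 at 1.71 CPM inside the WT range. The other 8 KO libraries were above every WT library. The log2 fold change was 0.62 (SE 0.16, 95% interval 0.29 to 0.95), with the smallest unadjusted p of any member, 0.000725, and an adjusted p of 0.782. It was 0.57 without KO 8 and 0.56 without both doubted libraries. Without the 5 libraries richest in choroid plexus genes, KO 2, 6 and 12 among them, it was 0.82 (SE 0.14) at an edgeR adjusted p of 0.0621, the lowest over its 7 alternatives, where the highest was 0.999. With the dentate gyrus covariate the value was 0.55.

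The other mitotic genes had values on both sides of 0. Top2a, the topoisomerase that untangles chromosomes, ran from 0.492 to 1.37 CPM in WT (median 0.956) and 0.477 to 1.3 CPM in KO (median 0.762), with a log2 fold change of -0.20 (SE 0.186). Cenpf, another kinetochore protein, ran from 1.18 to 2.09 CPM in WT (median 1.52) and 0.951 to 1.7 CPM in KO (median 1.3), at -0.27 (SE 0.13, p = 0.0523). The cyclin Ccna2 differed by 0.18 (SE 0.153), or 0.09 without KO 8, the mitotic cyclin Ccnb2 by 0.04 (SE 0.226) and the survivin gene Birc5 by 0.08 (SE 0.216). Highest values of both Ccna2, 4.62 CPM, and Birc5, 1.62 CPM, were in KO library 8.

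Mitotic members below the filter had 16 to 66 counts per genotype. Cdk1, the kinase that starts mitosis, had 42 counts in WT and 40 in KO, and its cyclin Ccnb1 had 66 and 47. Ube2c, a ubiquitin enzyme of mitotic exit, had 45 and 26, Aurkb 25 and 31, and Bub1 23 and 16. A library with 0 counts could have held up to 3, or 0.131 to 0.218 CPM, which covers counting error only. With no filter on low counts, edgeR gave Ube2c a log2 fold change of -0.66 (SE 0.463), the largest of these 5 in size, and the SEs of the 5 ran from 0.331 for Cdk1 to 0.577 for Bub1. Differences of the size of these errors could not be told from 0 at this depth. In the same edgeR fit the value of Ube2c, larger than its SE, had an unadjusted p of 0.165. Ccnd1, the G1 cyclin, which is no member, lies 2.19 Mb from Ins2, nearer than Mki67. It stood at 62.4 ± 7.39 CPM (SD, n = 12) in WT against 28 ± 2.56 CPM (SD, n = 11) in KO, with an edgeR adjusted p of 5.71e-11.

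**Figure D4:**
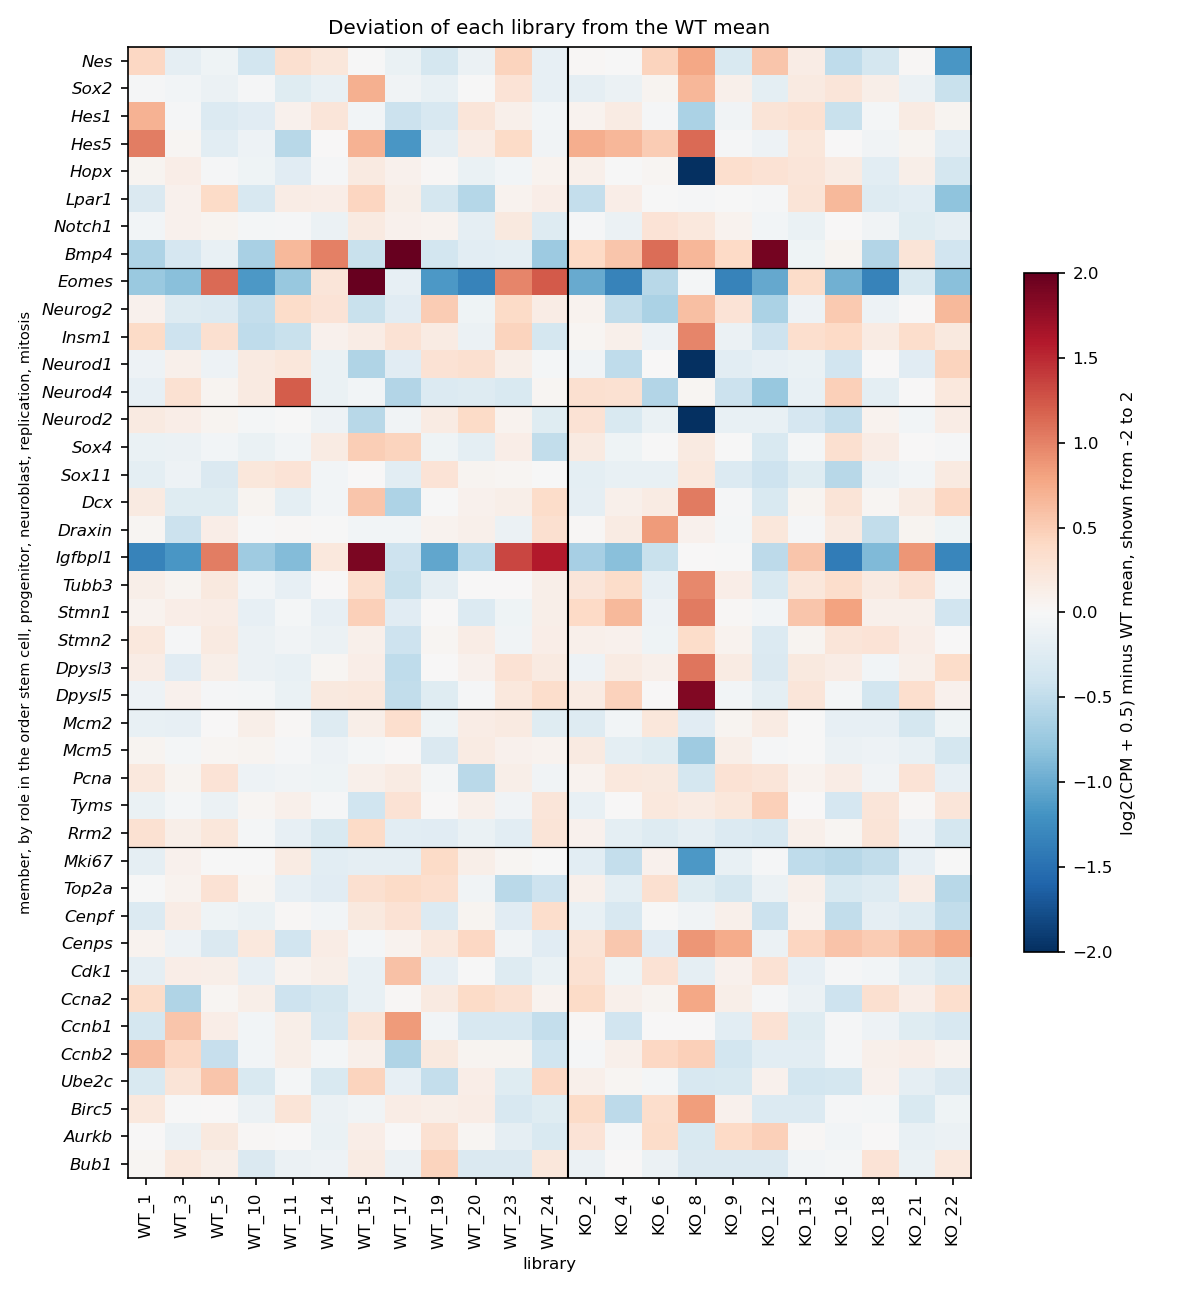
Deviation of log2(CPM + 0.5) from the WT mean for each member (rows, by role) in each library (columns), with colours limited to -2 and 2. KO library 8 has dark cells of both colours (blue for Hopx, Neurod1 and Neurod2, red for Dpysl5), and Eomes and Igfbpl1 share their darkest cell in WT library 15.

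KO library 8 was the highest library for 12 of the 33 tested members and the lowest for 6, 36.4% and 18.2%, beside 22.1% and 23.6% of all tested genes. The 12 held cytoskeletal and neuroblast genes (Dcx, Tubb3, Stmn1, Stmn2, Dpysl3, Dpysl5) with Nes, Hes5, Insm1, Cenps, Ccna2 and Birc5. The 6 were Hes1, Hopx, Neurod1, Neurod2, Mcm5 and Mki67. WT library 15 was the highest for 5 of all 41 members, namely Eomes, Igfbpl1, Sox2, Sox4 and Rrm2, and for 4 of the 33 tested ones, beside 3.04% of all tested genes. WT library 17 was also the highest for 5 of 41, and for 3 of the 33 tested ones beside 9.4% of all tested genes. It was the lowest for 7 of the 33, beside 7.6%.

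Pairs of genes were compared across libraries on log2(CPM + 0.5) to see whether markers of successive states varied together. Of 8 pairs, 0 had a Benjamini-Hochberg adjusted permutation p below 0.05 over all 23 libraries. Mki67 and Top2a gave Pearson r = 0.22 (Spearman rho 0.15, permutation p = 0.313, adjusted p 0.313). Dcx and Sox11 gave r = 0.33 (rho 0.29, permutation p = 0.122, adjusted p 0.195), and 0.18 without KO 8 and WT 15. For this pair r was 0.24 within WT and 0.66 within KO (rho 0.57, permutation p = 0.0285, adjusted p 0.158). Dcx and Mki67 gave r = -0.51 (rho -0.22, permutation p = 0.0183, adjusted p 0.0732), which became -0.22 without the 2 libraries farthest from the median of Dcx and -0.13 without KO 8 and WT 15. Dcx and Prox1, a granule cell factor, went from -0.60 (rho -0.39, permutation p = 0.00755, adjusted p 0.0604) to -0.22 and -0.15 in the same way. Over the pooled libraries neither relation held in these sets, and KO 8 was left out of each. Dcx and Mki67 gave -0.10 within WT and, with KO 8 included, -0.67 within KO (rho -0.25, permutation p = 0.0396, adjusted p 0.158). Dcx and Prox1 gave -0.45 within WT (rho -0.52, permutation p = 0.141, adjusted p 0.292). Within KO, again with KO 8, they gave -0.65 (rho -0.23, permutation p = 0.0742, adjusted p 0.183). Within WT, Eomes and Neurod1 gave r = -0.78 (rho -0.73, permutation p = 0.00335, adjusted p 0.0268, and 0.0735 for the ranks). Without WT 15, a set added after seeing the data, r was -0.58 (permutation p = 0.0668) and rho -0.65 (permutation p = 0.0371), both unadjusted. Within KO r was -0.36 (permutation p = 0.26), and over all libraries -0.21 (permutation p = 0.298).

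Other genes of the same processes were taken from lists that hold no member. Of 24 further stem cell and niche genes 22 were tested, 0 were called and 0 had an unadjusted p below 0.05, and the smallest p-values belonged to the RNA-binding protein gene Msi1 (log2 fold change 0.18, SE 0.0901) and the BMP receptor gene Bmpr1a (0.08, SE 0.054). Of 19 further neuroblast genes 18 were tested and 0 called. At an unadjusted p below 0.05 there were 3, 2 higher and 1 lower in KO, 16.7% beside 5.74% of all genes. The third was Gap43, a growth cone protein (0.55, p = 0.0467), at 0.21 without KO 8. Tac2, a tachykinin gene of immature granule cells and of the habenula, gave 1.21 (SE 0.436) and 0.26 without KO 8. Prox1 gave -0.41 (SE 0.17, p = 0.0242), and -0.31 (p = 0.0202) without KO 8. Without KO 8 the list had 0 higher and 2 lower genes at an unadjusted p below 0.05, Prox1 and Sox3 (-0.52, p = 0.0192). That was 11.1% beside 4.1% of all genes. Without both doubted libraries there were 0 higher and 3 lower, Nrn1, Prox1 and Sox3, or 16.7% beside 6.78%. KO 8 held 36.5 CPM of Prox1, where the other KO libraries and all WT libraries held 86.7 to 196 CPM.

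Of 20 further replication genes 18 were tested and 0 called, and 2 had an unadjusted p below 0.05, 11.1%. The licensing factor Cdt1 gave 0.88 (SE 0.272, p = 0.00344), and 0.68 (p = 0.00927) without KO 8. It ran from 0.182 to 1.05 CPM in WT and 0.4 to 2.58 CPM in KO. The DNA ligase Lig1 gave 0.52 (SE 0.201), and 0.24 without KO 8, where it stood at 25.7 CPM. Of 24 further mitotic genes 16 were tested and 0 called, and 1 had an unadjusted p below 0.05, 6.25%. Plk1, a mitotic kinase, gave 0.57 (SE 0.166, p = 0.00218), and 0.55 (p = 0.00402) without KO 8, and the motor Kif11 gave -0.32 (SE 0.161). The medians of the 4 lists ran from -0.019 to 0.039.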

How the data were processed

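Estimated counts per Ensembl gene came as a single table deposited by the authors, with columns joined to samples through the sample titles and library names. The submitters' processing notes name bcl2fastq, STAR and mm10. The counting program, annotation and use of strand are not given in the sources used here. Of the 41 members, 11 carry fractional values, so reads may be shared with similar genes, and exons of 11 overlap another gene (among them Hes5, Hopx, Sox4, Ccna2 and Ube2c on the opposite strand), which makes their values uncertain.

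Counts were rounded and tested with edgeR 4.0.16 (R 4.3.3; filterByExpr, TMM, robust quasi-likelihood F test) over 15828 genes, with Benjamini-Hochberg adjustment over all of them. CPM values use TMM-scaled library sizes. Exonic lengths and positions are from GENCODE M21 on GRCm38. The SE of a fold change is its size over the root of F. Libraries are taken as separate animals; the labels do not say so, and p-values measure the spread between these libraries. Permutation tests used 100000 resamples, two-sided (scipy 1.17.1, numpy 2.4.6). The fits were tested on simulated data. Alternatives were DESeq2 1.42.0, limma 3.58.1 voom, RLE scaling, 2 other filters, a dentate gyrus covariate and libraries left out.

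The members and lists were chosen with earlier results of these data known. All members are named. Full statistics go to 11 state markers and the 6 other tested members with the smallest p, and each further list names its 2 genes with the smallest p. Ccnd1, Gap43, Sox3, Nrn1 and Sp8 were picked after seeing their values.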

Additional observations from a re-analysis of the deposited data

How the results depend on the processing

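In each of the 8 alternatives and the 23 fits without 1 library, 0 members were called. The number of members at an unadjusted p below 0.05 was 4 as reported, 7 with voom and quality weights (where 17.5% of all genes passed), 2 with a mean of at least 50 counts (where low genes such as Mki67 and Cenps were not tested, and 5.93% of all genes passed) and 2 with the dentate gyrus score as covariate (2.62% of all genes). It ran from 3 to 5 without 1 library. The cause of the change with voom and the covariate was not tested. The median log2 fold change of the members ran from -0.025 (without KO library 8) to 0.075 without 1 library. In the WT libraries alone 1 of the 8 gene pairs passed the threshold by Pearson's r, against 0 over all libraries, and 0 passed by ranks.

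Of 251 values of single members under the alternatives, 221 kept their sign and 30 changed it, in 14 members whose log2 fold change lay within 2 SE of 0 in the main setting. With the dentate gyrus score as covariate they were -0.133 for Nes, -0.127 for Sox2, 0.037 for Hes1, 0.17 for Hopx, -0.049 for Neurog2, -0.004 for Insm1, 0.047 for Neurod1, 0.159 for Neurod2, -0.03 for Sox4, -0.006 for Dcx, -0.027 for Dpysl5, -0.09 for Ccnb2 and -0.123 for Birc5. With voom they were -0.062 for Nes, 0.056 for Hes1, 0.09 for Hopx, 0.026 for Lpar1, -0.104 for Neurog2, -0.051 for Ccnb2 and -0.232 for Birc5. Without KO library 8 and WT library 15 they were -0.064 for Nes, 0.025 for Hes1, 0.104 for Hopx, -0.095 for Neurog2, -0.028 for Ccnb2 and -0.108 for Birc5. Without the 5 libraries richest in choroid plexus genes, an alternative chosen after seeing the data, they were -0.112 for Nes, 0.006 for Lpar1, -0.081 for Ccnb2 and -0.001 for Birc5. The cause was not tested. Without 1 library, 9 members changed sign, with ranges of -0.062 to 0.113 for Nes, -0.042 to 0.117 for Sox2, -0.061 to 0.058 for Hes1, -0.073 to 0.087 for Hopx, -0.145 to 0.005 for Lpar1, -0.033 to 0.156 for Neurog2, -0.019 to 0.073 for Sox4, -0.04 to 0.156 for Ccnb2 and -0.094 to 0.161 for Birc5.

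Depth limits the mitotic genes most, 5 of which were below the filter. No paired analysis was possible because WT and KO libraries share no replicate number.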

Other observations

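Eomes and Igfbpl1, markers of successive states, were high in the same libraries, and a further gene was high there too. Sp8, a factor of interneuron-forming neuroblasts, was at 11.7 CPM in WT library 15, 4.53 CPM in WT 24, 3.36 CPM in WT 23 and 3.17 CPM in WT 5, and at or below 1.86 CPM in the other 8 WT libraries. In KO it was highest in library 21 at 3.03 CPM, library 8 at 2.46 CPM and library 13 at 2.25 CPM. In the same 3 libraries Igfbpl1 stood at 2.4, 1.08 and 1.82 CPM and Eomes at 0.514, 0.72 and 1.13 CPM, which are their 3 highest KO values. Sp8 was picked from a list of 10 markers of rostral neuroblasts, and other genes of that list went both ways. Dlx1 was highest in the same WT libraries (59.6 CPM in WT 15, 44.5 in WT 24, 43.7 in WT 23 and 39.8 in WT 5). In KO it was highest in libraries 21, 8 and 13, at 44.4, 43.5 and 42.3 CPM. Dlx5 was at 3.53 CPM in WT 24 but 4.47 CPM in WT 1, and Sp9 at 5.23 CPM in WT 5 but 5.81 CPM in WT 10. The mean log2 level of the 10 markers, Sp8 included, was highest in WT 15, 24, 23 and 5 among WT libraries. It was 4.38, 3.8, 3.76 and 3.65 there, and 3.84 in KO 21, the highest KO library. The mean log2 level of 8 striatal markers was also highest in WT 15, WT 24 and WT 5 among WT libraries, at 2.77, 1.65 and 1.64, with WT 23 at 1.32 and KO 8 at 2.61. The part of neighbouring tissue in the pattern was not tested.

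These pairs were chosen after their values were seen, so their p-values describe the pattern and do not test it independently. Across 23 libraries, Eomes and Igfbpl1 gave Pearson r = 0.87 (Spearman rho 0.67, permutation p = 1e-05, the smallest that 100000 resamples can give). Eomes and Sp8 gave r = 0.91 (rho 0.74, permutation p = 1e-05), and Igfbpl1 and Sp8 gave r = 0.85 (rho 0.72, permutation p = 1e-05). The adjusted p was 1e-05 for each of the 3. Without WT 15 and WT 24, the libraries farthest from the Eomes median, r was 0.79 for Eomes with Igfbpl1 and 0.81 for Eomes with Sp8. Without WT 15 and KO 8, r was 0.83, 0.85 and 0.85 for the 3 pairs. Within WT the values were 0.93, 0.95 and 0.92. Within KO they were weaker. Eomes with Igfbpl1 gave 0.64 there (rho 0.53, permutation p = 0.0345, adjusted p 0.0518). Eomes with Sp8 gave 0.72 (rho 0.72, permutation p = 0.0129, adjusted p 0.0387). Igfbpl1 with Sp8 gave 0.56 (rho 0.4, permutation p = 0.0752, adjusted p 0.0752).

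Dcx and Igfbpl1 gave r = 0.23 over all libraries (rho 0.11, permutation p = 0.291, adjusted p 0.313) and r = 0.49 within WT (rho 0.37, permutation p = 0.107, adjusted p 0.292). WT 15 and WT 24 were the highest WT libraries for Dcx, at 19.6 and 17.1 CPM. WT 23, at 14.3 CPM, lay below WT 1 at 15 CPM, and WT 5, at 11.1 CPM, lay below the WT median of 13.4 CPM.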
